A study of Mus musculus with 12 samples.

Results

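H3K9me3, trimethylated lysine 9 of histone H3, was examined at 5 clusters of KRAB zinc finger genes outside chromosome 7 in mouse embryonic stem cells that lack Tex19.1 and in heterozygous cells. The members are the regions of the authors' deposited table whose start lies (mm10) on chromosome 2 at 175 to 178 Mb, chromosome 4 at 145 to 148 Mb, chromosome 10 at 81 to 83 Mb, chromosome 13 at 61 to 68 Mb or chromosome 17 at 20.8 to 23 Mb. They number 598 of 68291 regions, with 57, 112, 91, 231 and 107 in that order. The study holds 3 immunoprecipitated and 3 input libraries of Tex19.1-/- cells and 3 and 3 of Tex19.1+/- cells, by their titles. The genotype field of the labels goes against the title in 6 of the 12 libraries. All cells derive from the E14Tg2a line of 129/Ola background and were used at passages 12 to 20. The labels do not say whether the libraries of a genotype came from separate cultures or clones, so p-values may measure only technical spread. The table holds the authors' single comparison, which lists for every region a log2 fold change, the mean log2 CPM (CPM being reads per region divided by library size), a p-value and its false discovery rate (FDR), and no value of a single library. Which genotype is the numerator is not stated, so values are given with their deposited sign. A histone mark gives no check of the labelled cell type or of the genotype.

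KRAB zinc finger proteins form a large family of DNA-binding repressors. Their zinc fingers bind chosen sequences, often in retrotransposons, and their KRAB domain recruits TRIM28 (KAP1), which brings the methyltransferase SETDB1 and so places H3K9me3. The genes arose by tandem duplication and lie in clusters, and the clusters themselves are known to carry H3K9me3, often over the ends of the genes that encode the fingers.

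Some of the genes in these clusters are close copies of each other, and how alike they are differed between the clusters. RefSeq promoters (GRCm38.p6, 250 bases before to 50 after a start) were matched by gene ID for 77 of the 87 protein-coding zinc finger genes of the windows, as 87 promoters. Of these, 2 overlapped an H3K9me3 region, those of Zfp984 and Rslcan18, or 2.30% of promoters. The share was 1.77% for the promoters of all protein-coding genes. For those of the other protein-coding genes of the windows it was 2.41% (4 of 166). One of these 4 covered promoters, which resembles that of Zfp984, belongs to the gene Gm13212. The promoters of Zfp984, Gm13212 and Rslcan18 are shown with that of Zfp981, the listed zinc finger promoter most like Zfp984, which no region covered. That of Zfp966, in the region-free part of the chromosome 2 cluster, is shown as well. Each is written 5′ to 3′ along its gene, and capitals mark the dinucleotide CG, the site of DNA methylation.
Zfp984 (chr4:147809739-147810038, minus strand, covered): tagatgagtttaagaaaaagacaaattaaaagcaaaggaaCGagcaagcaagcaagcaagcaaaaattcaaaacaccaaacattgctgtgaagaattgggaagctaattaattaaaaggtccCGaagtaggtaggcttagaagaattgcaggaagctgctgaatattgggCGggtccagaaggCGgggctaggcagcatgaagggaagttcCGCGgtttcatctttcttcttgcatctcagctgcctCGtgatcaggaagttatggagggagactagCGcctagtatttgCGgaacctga
Gm13212 (chr4:145584950-145585249, plus strand, covered): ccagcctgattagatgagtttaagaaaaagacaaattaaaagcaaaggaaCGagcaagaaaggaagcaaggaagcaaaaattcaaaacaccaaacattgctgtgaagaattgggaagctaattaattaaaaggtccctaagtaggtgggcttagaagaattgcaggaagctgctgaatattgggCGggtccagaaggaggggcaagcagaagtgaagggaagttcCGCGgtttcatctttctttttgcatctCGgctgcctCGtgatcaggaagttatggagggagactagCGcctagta
Zfp981 (chr4:146514670-146514969, plus strand, not covered): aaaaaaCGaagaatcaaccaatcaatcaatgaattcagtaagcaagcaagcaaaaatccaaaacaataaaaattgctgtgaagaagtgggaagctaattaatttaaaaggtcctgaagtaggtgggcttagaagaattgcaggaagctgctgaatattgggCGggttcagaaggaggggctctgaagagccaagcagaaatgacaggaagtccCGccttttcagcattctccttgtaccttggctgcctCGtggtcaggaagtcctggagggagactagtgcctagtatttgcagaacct
Rslcan18 (chr13:67113979-67114278, minus strand, covered): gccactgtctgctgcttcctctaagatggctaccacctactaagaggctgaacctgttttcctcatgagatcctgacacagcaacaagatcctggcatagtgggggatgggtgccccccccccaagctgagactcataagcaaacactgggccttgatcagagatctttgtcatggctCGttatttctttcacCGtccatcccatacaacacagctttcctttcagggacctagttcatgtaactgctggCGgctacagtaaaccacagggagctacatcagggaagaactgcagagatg
Zfp966 (chr2:175931051-175931350, minus strand, not covered): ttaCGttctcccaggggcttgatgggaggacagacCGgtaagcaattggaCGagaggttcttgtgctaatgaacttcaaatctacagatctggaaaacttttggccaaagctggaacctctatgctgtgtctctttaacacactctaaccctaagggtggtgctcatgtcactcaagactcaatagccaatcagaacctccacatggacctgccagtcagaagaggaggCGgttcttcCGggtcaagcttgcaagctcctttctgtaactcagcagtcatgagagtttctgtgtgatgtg

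The Zfp984 and Gm13212 promoters were identical at 276 of 315 aligned positions (87.6%), and Zfp984 and Zfp981 at 78.2%. They held 9, 7 and 4 CG in the order Zfp984, Gm13212 and Zfp981, and Rslcan18 held 3. CG was counted on 1 strand, since it reads the same on both. The zinc finger promoters of the windows had a median of 7 CG, those of zinc finger genes elsewhere 17 and all protein-coding promoters 13. Of all promoters in the table, 94.6% held at least 1. In the chromosome 2 cluster, Zfp966 and Zfp967 had promoters that were identical at all 300 bases, as had Gm14434 and Gm14308, and Zfp968 and Zfp973 differed at 1 base. Of the 91 promoter pairs within the chromosome 2 cluster, 22.0% were at least 90% identical, against 3.85% of 78 pairs in the chromosome 4 cluster, 0.585% of 171 in the chromosome 17 cluster and 0 of the 351 and 6 pairs in the chromosome 13 and chromosome 10 clusters. No pair between clusters reached 90% (highest 64.3%). The median identity was 77.0% within the chromosome 2 cluster, 67.7% within the chromosome 4 cluster and 61.04% within the chromosome 10 cluster. Within the chromosome 13 and chromosome 17 clusters it was 51.4% and 49.7%, near the 50% between clusters.

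The 5 windows differed in how much H3K9me3 they held. Summed CPM per Mb was 1126 in the chromosome 4 cluster, against 400.1 in the rest of that chromosome, a ratio of 2.81. It was 716.1 in the chromosome 10 cluster against 468.8 in the rest (ratio 1.53), and 840.2 in the chromosome 17 cluster against 556.0 (ratio 1.51). The chromosome 13 cluster had 685.5 CPM per Mb against 517.8 in the rest (ratio 1.32). The chromosome 2 cluster had 332.5 against 320.3 (ratio 1.04), so that it was about as dense as the chromosome around it. The number of regions did not follow the same order. Regions per Mb were 48.6 in the chromosome 17 cluster, 45.5 in the chromosome 10 cluster, 37.3 in the chromosome 4 cluster, 33.0 in the chromosome 13 cluster and 19.0 in the chromosome 2 cluster, against 30.6, 28.0, 25.4, 31.2 and 21.4 in the rest of the same chromosomes. The excess of the chromosome 4 cluster therefore lay more in strength than in number. Its regions together held 23.4 CPM per kb of region, against 13.03 in the rest of chromosome 4, while the other 4 clusters held 13.04 to 14.7. A typical region differed less. The median over regions was 14.8 CPM per kb, against 11.4 in the rest of chromosome 4 and 12.0 to 12.3 in the other 4 clusters. The chromosome 10 value depends on the window's edges, since it was 1340 CPM per Mb with 0.5 Mb added on both sides.

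**Figure D1:**
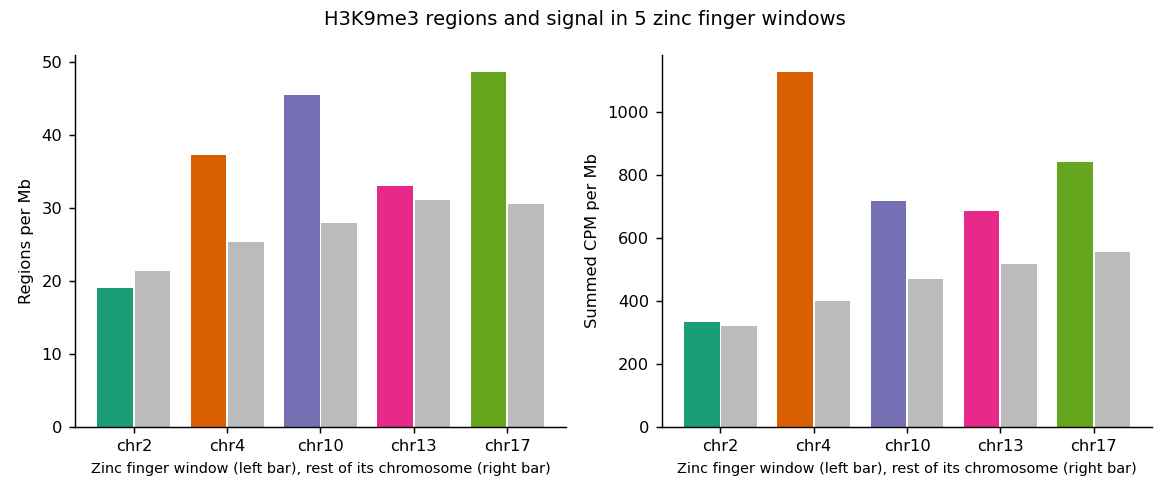
Regions per Mb (left panel) and summed CPM per Mb (right panel) in each zinc finger window (coloured, left bar) and in the rest of its chromosome (grey, right bar). The chromosome 4 window has the highest signal, 1126 CPM per Mb, and the chromosome 2 window the lowest, 332.5.

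A small number of strong or broad regions carried much of the signal. The 36 members of at least 64 CPM, 6.02% of the members, held 35.0% of the members' summed CPM. The 19 members of at least 5 kb, 3.18% of the members, held 24.7%. Over all chromosomes, regions of at least 64 CPM were 3.41% of the regions and held 23.6% of the summed CPM. The strongest member lay within Zfp982 on chromosome 4 (147464620 to 147475242), at 421.1 CPM over 10622 bp. The next lay on the same chromosome over the pseudogene Gm13036, 30743 bp from Zfp987 (146058645 to 146066569), at 405.8 CPM. The widest member, 16027 bp at 279.1 CPM, lay within Zfp934 on chromosome 13 (62541739 to 62557766), and the second widest, 14556 bp at 207.5 CPM, within Zfp808 (62134024 to 62148580). The strongest members of the other clusters were weaker, at 110.6 CPM on chromosome 17, 92.0 on chromosome 10 and 85.6 on chromosome 2.

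Within the windows the mark was spread unequally, and on chromosome 13 the strongest Mb was not the one with the most zinc finger genes by name. On chromosome 13, the stretch from 62 to 63 Mb held 3 zinc finger genes by name (Zfp808, Zfp935 and Zfp934), 82 regions and 2523 CPM. The stretch from 67 to 68 Mb, which holds 26 zinc finger genes including the Rsl1 group, had 24 regions and 475.5 CPM. On chromosome 10 the part from 82 to 83 Mb held 75 regions and 1220 CPM, against 16 regions and 212.5 CPM from 81 to 82 Mb, where 50 protein-coding genes lie. On chromosome 4 the stretch from 147 to 148 Mb was the strongest, with 55 regions and 1901 CPM, and here it also held the most zinc finger genes (9).

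Long stretches without any region lay over some of the gene arrays, but others held 0 whole zinc finger genes by name. Those included the longest in the chromosome 10 window (294.7 kb) and in the chromosome 4 window (251.8 kb). The second longest in the chromosome 2 window (296.6 kb) also held 0. In the chromosome 2 cluster, 1582 kb (175167464 to 176749649) held no region, with 18 protein-coding genes inside, 9 of them in the zinc finger list. This stretch holds both copies of the pairs with identical promoters named above. How reads that fit several places were treated is not given in the sources used here, and the part of such reads in the missing regions was not tested. On chromosome 13, 221.2 kb (67242938 to 67464117) without a region held 7 zinc finger genes, from Zfp457 to Zfp874a. Longer stretches in that cluster, of 252.8 and 242.5 kb, held 0. No pair of promoters in that cluster was over 88.4% identical, but promoters do not show how alike the rest of such a stretch is. The part of reads that fit several places was not tested here either. On chromosome 17 the longest stretch between a pair of members was 100.1 kb and held Zfp677, Zfp54 and Zfp51. The end of that window, from 22.8 to 23 Mb, also held 0 regions and 1 zinc finger gene.

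**Figure D2:**
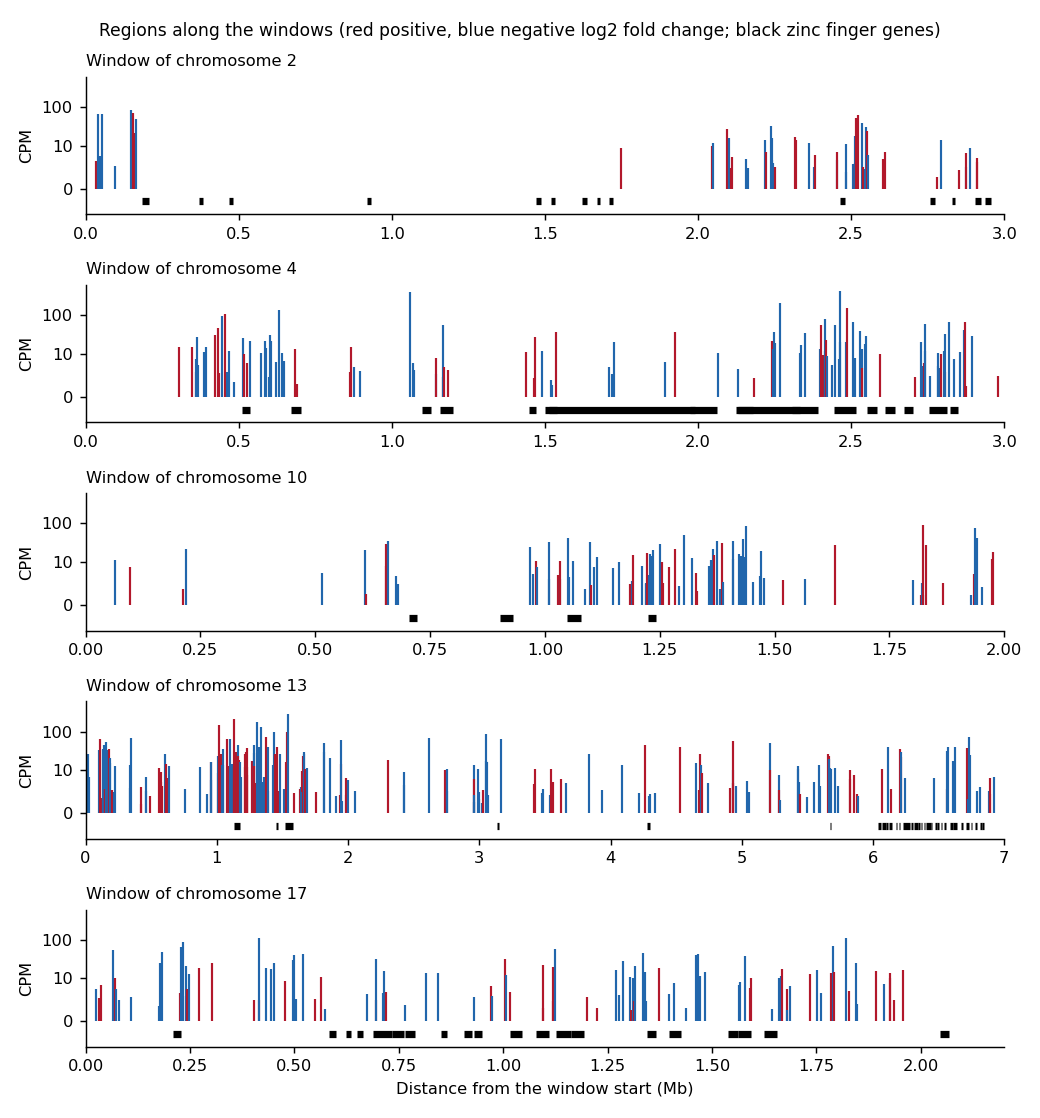
Signal of each region (CPM, linear up to 10 and logarithmic above) against its distance from the start of the window in Mb, 1 panel per cluster. Red lines are regions with a positive and blue lines regions with a negative log2 fold change, and black bars are zinc finger genes. The chromosome 2 panel shows the 1582 kb without a region, and the chromosome 13 panel the dense stretch in its second Mb.

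Most zinc finger genes of the clusters had no H3K9me3 region in their body. Of 87 genes, 33 (37.9%) had one and 49 (56.3%) had one within 5 kb. The share with a region in the body was 10 of 17 in the chromosome 4 cluster, 2 of 4 in the chromosome 10 cluster, 8 of 20 in the chromosome 17 cluster, 12 of 32 in the chromosome 13 cluster and 1 of 14 in the chromosome 2 cluster. It was 26.3% of the 160 other protein-coding genes of the windows, 30.9% of 110 zinc finger genes of chromosome 7 and 24.2% of 5657 other protein-coding genes in the rest of the 5 chromosomes. Longer genes have more room for a region. The median length was 21.3 kb for the 87 genes, and 13.3, 14.8 and 15.9 kb for the others in that order. Region overlaps per Mb of body were 37.6 for the 87 genes, against 28.8, 38.4 and 15.7. Regions covered 5.33% of the summed body length of the 87 genes, against 3.42% for the 160 other genes of the windows. They covered 4.58% of the whole length of the windows. The share of body length was 5.48% for the chromosome 7 genes and 2.57% for 306 zinc finger genes elsewhere. It was 1.73% for the other genes of the rest of the 5 chromosomes. These shares were not tested, since neighbouring genes share their regions. The list goes by name, so zinc finger genes under other symbols count among the other genes. Gm13212, whose promoter is 87.6% identical to that of Zfp984, is counted there. The 37.9% and 26.3% therefore need not set zinc finger genes against genes without fingers. Among the 48 stem cell, repeat and liver repressor genes chosen by name, 39 lay in the windows as protein-coding genes, and 17 of these had a region in the body.

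The covered genes were few and were covered very unequally. Zfp808 had 61.2% of its 44.1 kb body inside 9 regions, and Zfp934 had 42.2% of 62.5 kb inside 5 regions. Zfp982 had 31.9% of 73.0 kb inside 8 regions that summed to 755.7 CPM, the highest sum of any zinc finger gene in the windows. Zfp938 on chromosome 10 had 28.1% inside 4 regions, Zfp873 beside it 15.5% inside 3, and Zfp758 on chromosome 17 had 13.8% inside 4. In the chromosome 2 cluster only Zfp972 had any, 5.13% inside 2 regions of 13.2 CPM in all. Genes with similar promoters could differ. Zfp600 and Rex2 on chromosome 4 have promoters that are 99.3% identical, yet Zfp600 had 4 regions in its body (74.3 CPM in all) and Rex2 had 0. Zfp979, whose promoter is 94.8% identical to that of Zfp600, also had 0. On chromosome 17, Zfp758 had 4 regions and Zfp943 had 0, with promoters 94.8% identical. How reads that fit several copies were treated is not given in the sources used here. Their part in these differences was not tested. Rsl1, which represses male-specific genes in the liver, and Zfp708, which silences a family of retrotransposons, had 0 regions in the body, Zfp708 with 1 within 5 kb. Zfp978 and Zfp993 span 267.1 and 478.6 kb in RefSeq and enclose other genes, so that their 10 and 8 regions need not belong to them alone.

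**Figure D3:**
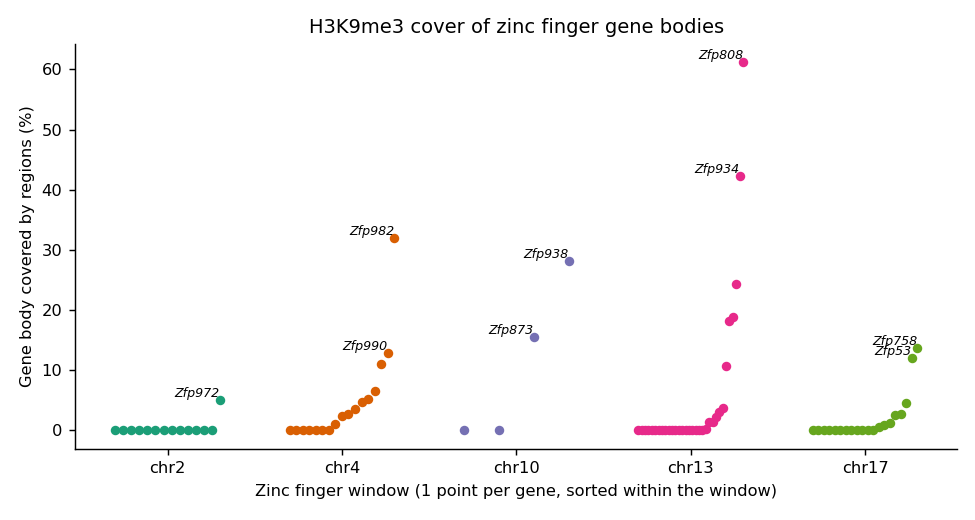
Share of each zinc finger gene's body that regions cover (%), 1 point per gene, sorted within each window, with the most covered genes named. Most points lie at 0, and Zfp808 (61.2%), Zfp934 (42.2%), Zfp982 (31.9%) and Zfp938 (28.1%) stand highest.

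Along 77 zinc finger genes of the windows with a known strand, cover was highest after the gene's end and not within the end of the body. On average over points in the 5 kb after the end, 8.31% of genes were covered, against 2.34% in the 5 kb before the start. The 8.31% rests on 4 to 8 genes per point. Within the body the share was 3.38% in the part nearest the start, 4.55% in the middle and 2.86% in the part nearest the end. For 4747 other genes in the rest of the 5 chromosomes the shares after the end and before the start were 2.72% and 2.03%. Along their bodies they were 1.36%, 1.83% and 1.97% in the same order. For 101 zinc finger genes of chromosome 7 the shares after the end and before the start were 4.36% and 4.75%. Here cover was highest in the part of the body nearest the end, at 8.51%, against 5.35% nearest the start and 5.54% in the middle. These are descriptions of genes that overlap and adjoin each other.

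The comparison of the genotypes asked whether H3K9me3 at these clusters differs when Tex19.1 is missing. By the deposited FDR below 0.05, 0 of 598 members were called, against 0.281% of the 68291 regions that the authors' deposited table lists and 0.324% in the rest of the 5 chromosomes. A share of 0 in a set of this size is near that background and is not a result about the members. In the rest of chromosomes 2, 4, 10, 13 and 17 the shares were 0.292%, 0.236%, 0.114%, 0.698% and 0.292%. The count was also 0 at an FDR below 0.01 and after Holm adjustment of the deposited p-values. The FDR of the members was 0.317 or higher. An unadjusted p below 0.05 was found for 17 members (2.84%), against 4.74% of the table and 4.07% of the rest of the 5 chromosomes. Of the 17, 15 were negative and 2 positive, with 8 in the chromosome 4 cluster, 7 in the chromosome 17 cluster and 2 in the chromosome 13 cluster. In the rest of chromosomes 4, 17, 13, 10 and 2, regions with such a p made up 3.14%, 4.63%, 5.96%, 3.59% and 3.32%. In the table as a whole, negative values of this kind made up 2.05% and positive ones 2.7% of regions.

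Most values were small and lay slightly to the negative side in 4 of the 5 clusters. The median log2 fold change was -0.12 in the chromosome 10 cluster, against -0.0041 in the rest of that chromosome. It was -0.08 in the chromosome 4 cluster against -0.020 in the rest, -0.07 in the chromosome 17 cluster against -0.021, and -0.06 in the chromosome 13 cluster against -0.0038. The chromosome 2 cluster had -0.0048 against -0.0013. Negative values made up 67.0%, 67.0%, 62.6%, 60.2% and 50.9% of the members in the order chromosome 10, 4, 17, 13 and 2, against 50.5%, 53.2%, 52.9%, 50.4% and 50.2% in the rest of these chromosomes. Members of 1 cluster share libraries and neighbours, so no test was made over them. The derived standard error of a member (hereafter SE) had a median of 0.34. It is the absolute fold change over the normal deviate of the p-value where that deviate is at least 1. Elsewhere it is the median at like signal and not the region's own error.

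**Figure D4:**
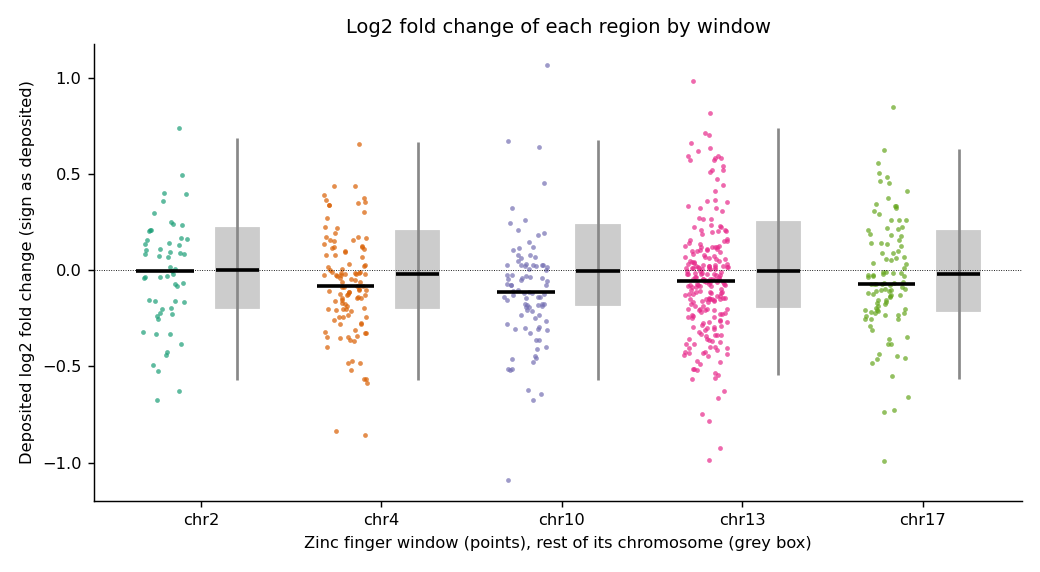
Deposited log2 fold change (sign as deposited) of each member (points, with the median as a black line) and of the rest of the same chromosome (grey box from the lower to the upper quartile, line at the median, whisker over the central 90% of regions). The medians of the windows lie between -0.12 and -0.0048.

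Signal moved with these values, and strong regions tended to negative values throughout the table. The table's median was 0.04 at a log2 CPM of 2 to 3 and -0.08 at 6 to 7, where the members had -0.04 and -0.06. Relative to regions of like signal outside chromosomes 11 and 16, the median was -0.07 in the chromosome 10 cluster against 0.03 in the rest of that chromosome, and -0.04 in the chromosome 4 cluster against 0.01. It was -0.02 in the chromosome 17 cluster against 0.0088 in the rest, and -0.015 in the chromosome 13 cluster against 0.02. The difference from the rest was thus -0.10, -0.05, -0.03 and -0.04 in that order, where the unscaled values gave -0.11, -0.06, -0.05 and -0.05. The chromosome 2 cluster was at 0.05 against 0.03. Among members of at least 16 CPM, 131 of 195 (67.2%) were negative, against 62.1% of such regions in the rest of the 5 chromosomes. The median of these 195 was -0.07 against -0.05 there. Relative to like signal both medians were close to 0, at 0.01 and 0.015, but the clusters differed. They were -0.05 on chromosome 10 (18 of 28 negative), -0.03 on chromosome 4 (23 of 42) and -0.02 on chromosome 17 (18 of 34), and 0.04 on chromosome 13 and 0.05 on chromosome 2.

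What the table could have shown depends on signal. The largest p-value that was called in the authors' deposited table was 0.000139. With the standard error typical of each signal level, a call took a log2 fold change of typically about 1.64 at a log2 CPM of 2 to 3, where 195 members lie, and of 0.88 at 4 to 5. For the 26 members at 6 to 7 it was 0.42, and for the 10 members above 7 it was 0.27. The largest values there were 0.28 and 0.17 in size. These are typical values and not floors, since some regions elsewhere were called at smaller changes, down to 0.68 where log2 CPM was between 4 and 5, 0.33 where it was between 6 and 7, and 0.13 above 7. Changes well below them could be missed at this depth. Among the 36 members of at least 64 CPM 0 were called, against 4.38% of the 2331 such regions in all chromosomes, with values from -0.28 to 0.22.

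**Figure D5:**
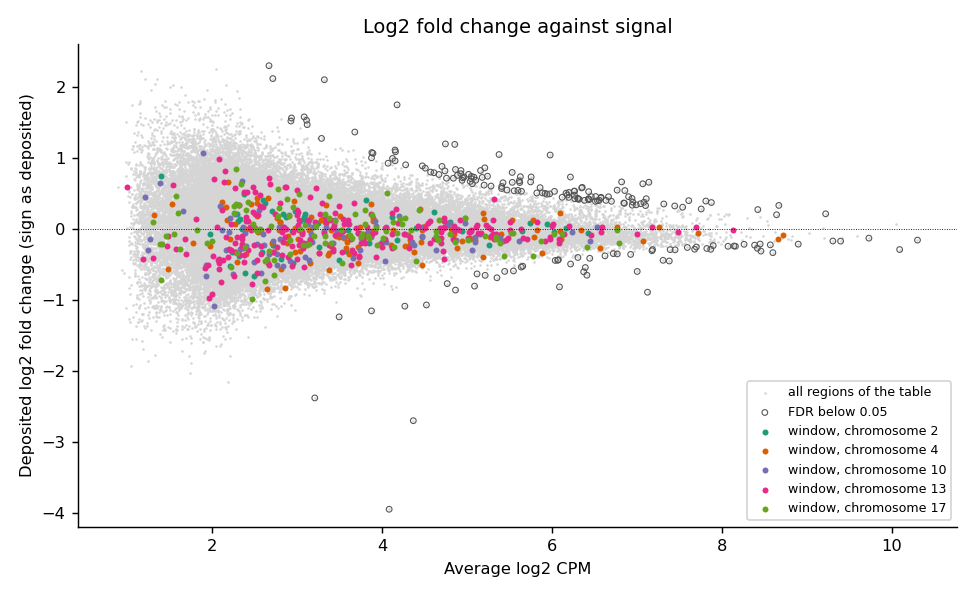
Deposited log2 fold change (sign as deposited) against average log2 CPM for all regions (grey), regions with an FDR below 0.05 (open circles) and the members of each window (coloured). Members narrow towards 0 with rising signal, and none is among the open circles.

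The chromosome 4 cluster held 8 of the 17 members with an unadjusted p below 0.05, among them the smallest. The region over Gm13036 was at -0.14 (SE 0.05) with the authors' deposited FDR at 0.317. Relative to regions of like signal it was at -0.04. A region of 94.3 CPM in the protein-coding gene Gm42346 (145445652 to 145446902) had -0.28 (SE 0.10, FDR 0.442), and one over the pseudogene Gm13148, 7268 bp from Zfp984 (147742128 to 147746706), had -0.35 (SE 0.12, FDR 0.453). Relative to like signal these were at -0.18 and -0.27. All 8 regions with an unadjusted p below 0.05 in this cluster were negative. The 8 regions in Zfp982 had -0.12, -0.21, -0.16, -0.10, -0.21, 0.03, -0.04 and -0.48 along the gene in the authors' deposited table. The last of these, a region of 8.92 CPM, gave the most negative value, and the strongest of the 8 had an SE of 0.05 and an FDR of 0.974. Relative to like signal that strongest region, deposited at -0.10, was at 0.01. In Zfp984, 6 of 8 regions were negative, from -0.84 to 0.34, and the region over its promoter had -0.13 (SE 0.16, FDR 1). The region over the similar promoter of Gm13212 had -0.02 (SE 0.23, FDR 1). The 4 regions of Zfp600 ran from -0.02 to 0.44, and the best measured, at 56.4 CPM, was at -0.02. In Zfp978, 8 of 10 regions were negative, and the most negative of at least 16 CPM had -0.40 per the authors' deposited table (147248027 to 147249303, FDR 0.678). Zfp990 held the most negative region of at least 16 CPM in the cluster, at -0.52 (145535635 to 145536270, SE 0.21, FDR 0.693).

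In the chromosome 13 cluster the broad regions gave deposited values near 0. The widest region, in Zfp934, had -0.02 (SE 0.06) and the one in Zfp808 had 0.02 (SE 0.07), both at FDR 1 per the authors' deposited table. Both SEs are medians at like signal and not the regions' own. Relative to regions of like signal the values were 0.09 and 0.13. The other 8 regions of Zfp808 ran from -0.25 to 0.27. Zfp935, which lies between these genes, had positive values where most of the cluster was negative. Its region of 39.999 CPM (62458038 to 62461405) had 0.41 per the authors' deposited table (SE 0.15, FDR 0.510), the smallest p of the cluster, and its second region, at 2.91 CPM, had 0.62. A region 19267 bp from Gm21933 (61608687 to 61610756) had -0.43 (SE 0.18, FDR 0.810). In the Rsl1 group at 67 Mb the region over the Rslcan18 promoter had -0.15 (SE 0.15, FDR 1), the 3 regions in Zfp729a had -0.11 to -0.04 and the region at the end of Zfp455 had 0.04. Zfp369 had 2 weak regions, at -0.98 and -0.44 with 3.91 and 4.37 CPM. Their SEs of 0.64 and 0.54 show how little such regions can tell.

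In the chromosome 17 cluster, 6 of the 7 regions with an unadjusted p below 0.05 were negative, and 4 of these lay between genes. The region of smallest p (20865064 to 20868478), 17563 bp from the vomeronasal receptor gene Vmn1r230, had -0.38 per the authors' deposited table (SE 0.13, FDR 0.342). A region 17292 bp from Gm7072 (22265865 to 22268579) also had -0.38 (SE 0.15, FDR 0.586). Over the pseudogene Gm6809, 4373 bp from Zfp160 (21033230 to 21036702), the value was -0.25 (SE 0.10, FDR 0.708). The widest region of the cluster (21215137 to 21222605, 7468 bp), 6221 bp from Vmn1r234, had -0.20 (SE 0.09, FDR 0.922). The positive one of the 7 lay near the end of the window (22756684 to 22758071) at 0.51 (SE 0.24, FDR 0.960). Among genes, the best measured regions of Zfp53 and Zfp758 had -0.16 and -0.10 in the authors' deposited table, each with an SE of 0.16. The region at the start of Zfp229 had -0.99, but at 5.53 CPM its SE was 0.49 and its FDR 1.

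The chromosome 10 cluster had the most negative median, yet 0 of its 91 regions reached an unadjusted p of 0.05. This rank depends on the window's edges. With 0.5 Mb added on both sides the median was -0.04 over 135 regions, against -0.06 in the chromosome 4 and chromosome 13 clusters. All 3 regions of Zfp873 (-0.13, -0.18 and -0.20) and all 4 of Zfp938 (-0.15, -0.45, -0.03 and -0.23) were negative in the authors' deposited table, all at FDR 1. The strongest of these, at 42.0 CPM in Zfp873, had an SE of 0.16. A region in BC024063 (82098504 to 82101209) had -0.31 (SE 0.17) and the widest region of the cluster (82438045 to 82444124) had -0.17 (SE 0.10), again with an FDR of 1. The 3 regions of at least 64 CPM ran from -0.17 to 0.03. In Gm4924, 5 of 6 regions were negative, from -0.12 to 0.03.

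In the chromosome 2 cluster also, 0 regions reached an unadjusted p of 0.05. Its 4 regions of at least 64 CPM lay at the start of the window, around Gm14393 and its neighbour LOC115489542, with values from -0.16 to 0.01 in the authors' deposited table. The smallest p was at a region 56142 bp from Zfp970 (177535336 to 177538253), with -0.24 (SE 0.15, FDR 1). The 2 regions of Zfp972 had 0.21 and 0.36, each with an SE of 0.43, the median at like signal. Thus Zfp972, the one protein-coding gene of the zinc finger list here with a region in its body, gave values within 1 SE of 0. Gm14412 and Gm14403, on the fixed list of names but not counted as protein-coding, held 5 and 3 regions. Their medians were 0.16 and 0.40.

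Regions at zinc finger genes elsewhere in the genome included a few calls. Of 129 members within 5 kb of a zinc finger gene, 0 were called, against 0.281% of the whole table, and the median log2 fold change was -0.11. A count of 0 in so small a set is near that background. Of 125 such regions on chromosome 7, 2 (1.60%) were called in the authors' deposited table, both negative, with a median of -0.04. Of 330 such regions on the remaining chromosomes, 4 (1.21%) were called, all positive, with a median of 0.04. The stretch of chromosome 12 from 17 to 25 Mb, with 468 regions and 1396 CPM per Mb, was further from 0 than any of the clusters. It had a median of -0.20, 76.1% negative values and 7 calls (1.496%), all negative. The differences between these sets were not tested.

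The genes of the KRAB pathway itself were also examined. Of 33 genes that place, read or remove H3K9me3 or act with KRAB proteins, 9 (27.3%) had a region within 5 kb, 21 regions in all, against 34.0% of the other protein-coding genes in the rest of the 5 chromosomes. Trim24, a relative of Trim28, held the most, with 7 regions of 244.1 CPM in all over 14.5% of its body and a median log2 fold change of 0.34. By the authors' deposited FDR 0 of the 21 were called, against 0.281% of the table, and 1 had an unadjusted p below 0.05. Their values ran from -0.42 to 1.48, with a median of 0.07. Trim28, Setdb1, the HP1 gene Cbx5 and the KRAB gene Zfp57 had 0 regions within 5 kb. The highest value lay in Pphln1, a subunit of the HUSH silencing complex, where 0.481 was the lowest FDR of its 4 regions. The single regions in Tasor, another HUSH subunit, and Zfp809, a KRAB gene that silences retroviruses, had -0.42 and -0.22, both at FDR 1 per the authors' deposited table.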

How the data were processed

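Regions were taken from the authors' deposited table, whose columns, per the file headers, are the log2 fold change, mean log2 CPM, p-value and FDR of every region. Tools listed without role or order, per the submitters' processing notes, are edgeR, bedtools 2.25.0, HOMER 4.8 and Bowtie2 2.2.6, with the build mm10. The sources used here do not give how regions were called, whether input was used or which genotype is the numerator. Coordinates are printed as the deposited table gives them. It has 0 columns of single libraries, so depth and spread per library were not analysed here.

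CPM is 2 to the power of the deposited log2 CPM. A derived standard error is the absolute log2 fold change over the normal deviate of the 2-sided p-value where that deviate is at least 1, and otherwise the median at like signal (bins of 0.5 log2 CPM). It inherits the authors' assumptions. An adjustment of the deposited p-values by Benjamini-Hochberg matched the deposited FDR within 3.2e-05. The computations were tested on simulated data.

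Genes come from RefSeq (GRCm38.p6, the assembly mm10 names). No protein table was given, so the planned C2H2 definition was replaced by symbol: protein-coding genes with a zinc finger symbol or synonym, or on a fixed list of names, which is not limited to KRAB genes (503 genes, 87 starting in the windows). This rule can miss zinc finger genes under other symbols, such as Gm names, which then count among the other genes. Promoters were aligned globally with Biopython 1.88, and identity is over the alignment length. The rest of a chromosome runs from its first to its last region, less the window.

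Regions named are, per window, the 4 of smallest p, the 3 strongest, the widest, the 2 most positive and 2 most negative of at least 16 CPM, those at the 2 most covered genes and the 2 of highest summed CPM, and those at the fixed list. Any other region or gene in the text was picked with its values known. The members and lists were chosen with earlier results of these data known. Alternatives were another FDR limit, Holm adjustment, omission of chromosomes X and Y or 11 and 16, filters on signal and width, other scales and larger windows.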

Additional observations from a re-analysis of the deposited data

How the results depend on the processing

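No member was called under any of 6 alternatives: an FDR below 0.01, Holm adjustment, omission of chromosomes X and Y, omission of chromosomes 11 and 16, regions of at least 1000 bp alone, or windows 0.5 Mb larger (784 regions). No paired analysis was possible because the table has no columns of single libraries; for the same reason no replicate could be left out. The alternatives by C2H2 matches and with a replicate block were not run. Relative to regions of like signal, 7 of 44 named regions changed sign, and the chromosome 13 median was -0.015 with 47.2% positive values. Positive values made up 18.9% on chromosome 4 and 23.8% on chromosome 17 among regions of at least 1000 bp, and 23.5% on chromosome 17 at a log2 CPM of at least 4. As a share of summed CPM they were 24.04% and 22.5%. Larger windows gave 44.4% positive values, a median of -0.04 and 1340 CPM per Mb on chromosome 10. Within 5 kb of a zinc finger gene the medians were -0.19 over 10 regions of chromosome 10 (10% positive) and -0.12 over 26 of chromosome 17. The causes were not tested.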

Other observations

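Other gene families in the windows were also described. The 9 cathepsin genes of the chromosome 13 window, most of them known from the placenta, had 6 members within 5 kb, with log2 fold changes from -0.21 to 0.59, a median of 0.15 and 0 calls in the authors' deposited table, where 0.281% of all regions were called. The 12 vomeronasal receptor genes of the chromosome 17 window had 5 members within 5 kb, with 0 calls. All 5 were negative, from -0.44 to -0.01, as were 62.6% of the members of that window. No region of either family had an unadjusted p below 0.05. Fv1 on chromosome 4, which restricts murine leukaemia viruses, lay almost wholly inside 1 region of 42.1 CPM that also covers the promoter of Miip. The authors' deposited table lists it at -0.08 (derived standard error 0.16) and FDR 1.

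At the window edges the first and last regions inside had values from -0.21 to 0.51 and the nearest regions outside from -0.28 to 0.26.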
